A study of Danio rerio with 12 samples.

Results

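CCCGGG sites of the zebrafish (Danio rerio) genome that were almost fully methylated in whole embryos are described here, site by site and library by library, with and without exposure to sodium arsenite. Of 64466 listed sites on 25 chromosomes, 2227 had at least 240 reads summed over the 12 libraries and 1 or 2 other listed sites within 1000 bp, leaving out chromosome 4 from position 27000000 on. Of these 2227, 1440 (64.7%) had a pooled level of 90% or more, where the pooled level is the methylated share of the summed reads, and these 1440 are the fully methylated sites. A further 323 sites of the same depth and spacing were at 70 to 90%, 227 at 10 to 70% and 237 under 10%. Because the level itself chose the sites, their high level is a description and not a result.

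The study exposed wild-type embryos, from fish of commercial origin bred for years in the laboratory, to sodium arsenite in embryo medium and asked whether DNA methylation changed. Control pools received no arsenite, a low-dose group received 0.1 mM and a high-dose group 1 mM for 72 hours, and all were sampled at 72 hours post fertilisation, when embryos hatch. Each group had 4 libraries, each made from a pool of whole embryos, so a level is an average over all tissues and animals of a pool. The labels do not say whether the pools of a group came from separate spawns, so p-values rest on the spread between these pools only. Positions are those of the danRer7 build.

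In vertebrates most CpG cytosines outside promoters and CpG islands carry a methyl group, which maintenance DNA methyltransferase copies onto the new strand at each cell division. Zebrafish embryos keep much of the methylation inherited from sperm, and methylated CpG is the usual state of their gene bodies, intergenic DNA and repeats. Inorganic arsenic is itself methylated in many animals with S-adenosylmethionine as donor, the same donor that DNA methyltransferases use. In the assay used here, digital restriction enzyme analysis of methylation, SmaI first cuts unmethylated CCCGGG, XmaI then cuts what remains, and the different fragment ends are told apart by sequencing. A fully methylated site is therefore one at which SmaI ends were rare, and the unmethylated reads carry the information on any loss of methylation.

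The fully methylated sites filled the upper end of the scale. Their median pooled level was 97.7%, with quartiles of 95.5% and 99%. There were 309 sites (21.5%) at 90 to 95%, 492 (34.2%) at 95 to 98%, 286 (19.9%) at 98 to 99% and 353 (24.5%) at 99% or more. At 39 sites no unmethylated read was seen in any library. Unmethylated reads were unevenly spread: the sites at 90 to 95% held 20.7% of the reads but 50.8% of the unmethylated reads, and 136 sites (9.44%) gave 50% of them.

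**Figure D1:**
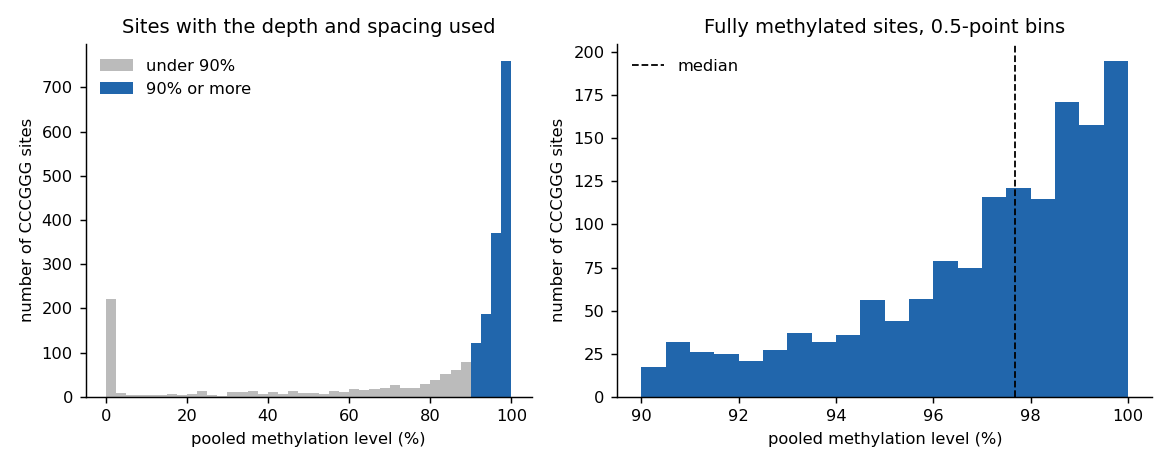
Left, number of sites of the depth and spacing used (y axis) by pooled methylation level in percent (x axis, 2.5-point bins), with sites at 90% or more in blue and the others in grey. Right, the 1440 fully methylated sites in 0.5-point bins; the dashed line marks their median of 97.7%, and the counts rise towards 100%.

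Depth set how well each level was known. Summed reads per site ran from 240 to 28647 with a median of 3121, and the 95% Wilson interval of the pooled level, which covers counting error only, reached below 90% at 71 of the 1440 sites. The level depended little on depth: the median was 97.6% at the 360 sites with 240 to 660 reads and 98.1% at the 360 with 9577 to 28647. At least 20 reads in each library were present at 1225 sites, and values by library are given for these. The libraries held 1425613 to 1822127 reads, of which 41.4 to 45.9% fell on the 1440 sites, and the median site had 340 to 448 reads per library.

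The most deeply read sites serve as examples, at depths far above the median of 3121 reads. Not all deep sites were as steady: chromosome 4 position 18937384 (23492 reads) ranged from 92.8 to 97.7% over the libraries. The site on chromosome 12 at position 39236960, with 28647 reads, was at 97.1%, 97.4%, 97.3% and 97.1% in the control pools. Its level was 96.2%, 97.3%, 97.8% and 96.8% at 0.1 mM and 96.7%, 97.9%, 97.7% and 97.7% at 1 mM, so the groups overlapped. At chromosome 8 position 9064397, with 25738 reads, all 12 libraries lay between 98% and 98.9%. Chromosome 1 position 4099157 stood at 99 to 99.6% in the 12 libraries and chromosome 6 position 3520652 at 98 to 98.8%. These sites kept a small unmethylated share in every pool, at 0.654% pooled over libraries on chromosome 1 and 1.49% on chromosome 6.

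Other sites had no unmethylated read at all. Chromosome 25 position 20285171 had 0 unmethylated of 8883 reads, so that the unmethylated share could be up to 0.0338%. Chromosome 15 position 30957785 had 0 of 3184 (up to 0.0942%), and chromosome 14 position 32099052 had 0 of 1646 (up to 0.182%). Chromosome 7 position 68532531 had 0 of 1604 reads (up to 0.187%) and chromosome 8 position 26486431 had 0 of 1478 (up to 0.203%). The limit at the deepest of them lay under the share seen at the deeply read chromosome 1 site.

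At the threshold the choice between fully and mostly methylated was narrow. Just inside were chromosome 21 position 16854383 at 90.05%, chromosome 14 position 42634214 at 90.06%, and chromosome 22 position 32284121 and chromosome 13 position 28101018 at 90.07%. Just outside were chromosome 5 position 40442805 at 89.98%, chromosome 7 position 3888058 at 89.92%, chromosome 16 position 16836298 at 89.89% and chromosome 17 position 50366926 at 89.88%. The Wilson intervals of all 8 include 90%. All 8 levels are unadjusted. With methylated reads multiplied by the authors' correction factor of each library, 1514 sites were at 90% or more in place of 1440.

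A site called fully methylated from pooled reads was usually so in each pool. The same 12 libraries set the pooled level, so this is partly built in by the choice of sites and is a description only. Of the 1225 sites, 1178 to 1199 were at 90% or more in a single library, and 1049 (85.6%) were so in all 12. Among the 971 of them with a pooled level of 95% or more, 938 (96.6%) were at 90% or more in all 12. Only 8 sites fell under 80% in any library, and the lowest single value was 75.6%. Pearson's r across these sites was between 0.629 and 0.741 for any pair of libraries, as a description over sites that share each library; the narrow range of levels limits it.

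The most methylated of the 8 spiked DNA standards was set beside the sites. It was picked by its observed level and is not taken as a known limit of full methylation. This standard had 0.69% unmethylated reads over 48238 reads, and 246 of the 1440 sites (17.1%) had an unmethylated share as low or lower. Those 246 include the 39 sites without an unmethylated read, and at 240 reads counting error alone can give so low a share. The mean unmethylated share over the 1225 sites was 2.94%, 2.86%, 3.04% and 3.21% in control libraries 1 to 4. It was 3.03%, 3.10%, 2.83% and 3.04% at 0.1 mM, and 2.96%, 2.95%, 3.10% and 2.87% at 1 mM. The 3 groups overlapped throughout, and the highest and the second lowest of the 12 values were both from controls. In the same order of groups, the standard had 0.435 to 0.711%, 0.593 to 0.828% and 0.487 to 0.880% unmethylated reads. The library with the highest share over the sites, control 4, had one of the lowest in the standard (0.441%, Wilson interval 0.252 to 0.769%).

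**Figure D2:**
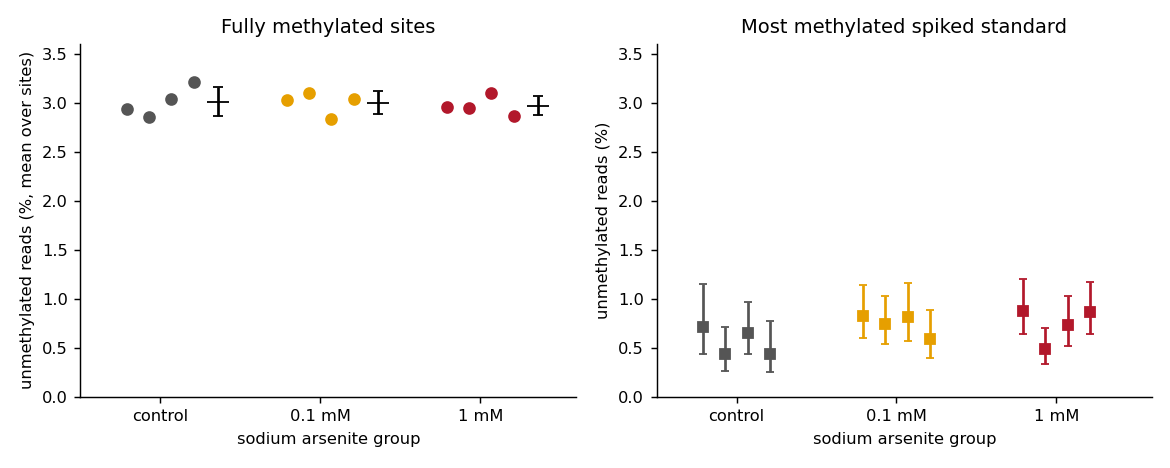
Left, unmethylated reads in percent, averaged over 1225 fully methylated sites, for each of the 12 libraries (points) by arsenite group; black marks give the group mean and SD of 4 libraries. Right, the same percentage in the most methylated spiked standard, with 95% Wilson intervals; libraries keep the same order in both panels, the sites lie at 2.83 to 3.21% and the standard at 0.435 to 0.880%.

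Expressed as methylation, the mean over these sites was 96.99% ± 0.15 in the control libraries (SD, n = 4). It came to 97.00% ± 0.117 for the low dose and 97.03% ± 0.0951 for the high dose. The difference was 0.0403 points between 1 mM and control, 0.0106 points between 0.1 mM and control and 0.0296 points between the doses, each smaller than the SD between libraries. No p is given for these means, since the sites were chosen by their level.

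Variation between pools at single sites exceeded counting error, by a small amount at the median site. The median SD between libraries of a group was 0.892 points over 1204 sites, beside a median binomial SD of 0.772. It was smaller at higher levels, from 1.47 points at 90 to 95% (binomial 1.28) to 0.349 points at 99 to 100% (binomial 0.31). A chi-square of methylated and unmethylated reads over the 12 libraries, which averages 1 per degree of freedom under counting error alone, had a median of 1.24 and exceeded 3 at 39 sites (3.24%). At the 271 sites of 70 to 90% with the same depth and spacing the median was 1.56 and 8.86% exceeded 3; the difference between the classes was not tested.

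The sites that varied most did so through single libraries or through spread within every group. Chromosome 9 position 1501041 had the largest chi-square, 12.4 per degree of freedom over 15352 reads. It was at 96.4% in control 1 but at 99.7%, 99.9% and 99.7% in the other controls, and between 98.7% and 99.9% in all exposed pools. Chromosome 6 position 29357472 (8.17 per degree of freedom) stood at 97% in control 3 and 97.2% in 1 mM library 4, with the other 10 libraries at 98.5 to 99.4%. Chromosome 6 position 8743865 (5.46) had no such single library: its controls were at 84.1%, 84.9%, 93.8% and 96.0%, its 0.1 mM pools at 88.1%, 96.3%, 91.7% and 92.2%, and its 1 mM pools at 88.4%, 91.0%, 96.5% and 96.0%. Each group there spanned at least 8 points, and the groups overlapped. Chromosome 25 position 35485771 (5.77) dipped to 94.9% in 0.1 mM library 3, and chromosome 20 position 25591605 (5.32) ranged from 86.6 to 94.7%.

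Full methylation was mostly shared with the nearest measured neighbour. A neighbour within 1000 bp with at least 240 reads was available for 908 of the sites, and the nearest such neighbour was itself at 90% or more at 746 (82.2%). It was at 70 to 90% at 117 (12.9%), at 10 to 70% at 41 (4.52%) and under 10% at 4 (0.441%). For sites of the same depth and spacing at 70 to 90%, the neighbour was at 90% or more in 49.6% of 236 cases. The share was 22.8% of 184 for sites at 10 to 70% and 1.84% of 217 for sites under 10%. Over all 2227 sites of that depth and spacing, fully methylated ones included, it was 58.8% of 1545. The rule used the number of neighbours but not their level; a pair in which both sites qualify is counted from each side, and sites are not replicates, so no test was made. By distance, the share was 79.5% of 73 neighbours up to 100 bp away, 86.8% of 242 at 100 to 200 bp and 78.5% of 326 at 200 to 300 bp. It was 83.2% of 190 at 300 to 500 bp and 83.1% of 77 at 500 to 1000 bp, with no order by distance. Sites at 90 to 95% had a neighbour at 90% or more in 72.9% of 210 cases, and sites at 99% or more in 85.4% of 205.

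**Figure D3:**
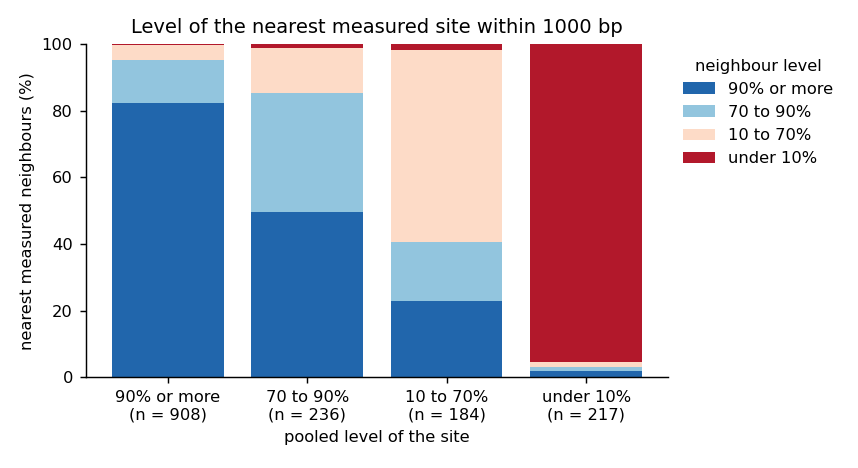
Share in percent (y axis) of nearest measured neighbours within 1000 bp that fall in 4 classes of pooled level (colours), for sites of 4 classes of pooled level (x axis, with the number of sites). Neighbours of fully methylated sites were at 90% or more in 82.2%, and neighbours of sites under 10% were themselves under 10% in 95.4%.

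At 4 places the nearest measured neighbour of a fully methylated site was under 10%. On chromosome 10, position 23282877 was at 92.5% (2200 reads; 87.1 to 97.1% in single libraries) and position 23282395, at a distance of 482 bp, at 0.997% (2207 reads; 0 to 2.26%). On chromosome 24, position 43838059 was at 98.4% (444 reads) and its neighbour at 569 bp at 0.191%. On chromosome 20, position 34621707 was at 92.7% (371 reads, 80 to 100% in single libraries) and its neighbour at 694 bp at 0.253%. The shortest step was on chromosome 17, where position 26153980 was at 97.5% (651 reads). There, position 26154016, only 36 bp away, was at 7.16% (1034 reads, 4.04 to 13.5% in single libraries). The ranges of the 2 sites over single libraries did not meet at any of the 4 places; 1 mM library 1 had no read at the chromosome 17 site.

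Within the fully methylated range, neighbours still differed in level. Both sites were fully methylated in 373 pairs of adjacent listed sites, which held 727 of the 1440 sites, and their levels differed by a median of 1.84 points. The Wilson intervals of the 2 sites did not overlap in 257 pairs (68.9%). Of 312 pairs with at least 20 reads per library at both sites, 112 (35.9%) had the same site higher in all 12 libraries, the lower-coordinate one in 57 and the higher-coordinate one in 55. Those 112 pairs differed by a median of 3.23 points and the other pairs by 1.21.

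The 3 most deeply read pairs were compared over the 12 libraries. The pooled levels of these same libraries chose both sites of each pair, so the p-values below measure only the spread between these libraries. Of the 3 pairs, the one on chromosome 25 had the widest step. Position 1712180 ranged from 90.1 to 92.4% over the 12 libraries with a median of 90.9%, while position 1712405, at a distance of 225 bp, ranged from 97.8 to 99% with a median of 98.5%. The second was higher in 12 of 12 libraries, by 7.62 points on average (SD 0.645; exact sign-flip permutation test over 12 libraries, two-sided, p = 0.000488, adjusted over the 6 pairs tested 0.000977). On chromosome 4, position 18937384 was at 92.8 to 97.7% and position 18937586 at 98.2 to 99.2%, and the second was again higher in 12 of 12, by 3.89 points (SD 1.38; the same exact p). The chromosome 4 sites also differed in constancy, with a chi-square per degree of freedom of 8.07 at the first and 1.5 at the second. On chromosome 5, position 18985413 exceeded position 18985203 in 12 of 12 libraries, by 1.44 points (SD 0.687; the same exact p, which is the smallest that 12 libraries allow).

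The 3 pairs with the shortest distance, 8 to 12 bp, were also compared, with the same limit on their p-values. On chromosome 1, positions 20669973 (3380 reads) and 20669985 (4022 reads) were at 99.53% and 98.48%. The first was higher in 11 of 12 libraries by 1.04 points on average (SD 0.832, exact permutation p = 0.00146, adjusted 0.0022). On chromosome 21, positions 44377118 (7635 reads) and 44377129 (2101 reads) were at 99.61% and 99.90%. The second was higher in 9 of 12, with a mean difference of first minus second of -0.317 points (exact permutation p = 0.0293, adjusted 0.0352). On chromosome 18, positions 48201046 (1402 reads) and 48201054 (12516 reads) differed by 0.33 points on average. The first was higher in 8 of 12 (exact permutation p = 0.212, adjusted 0.212).

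**Figure D4:**
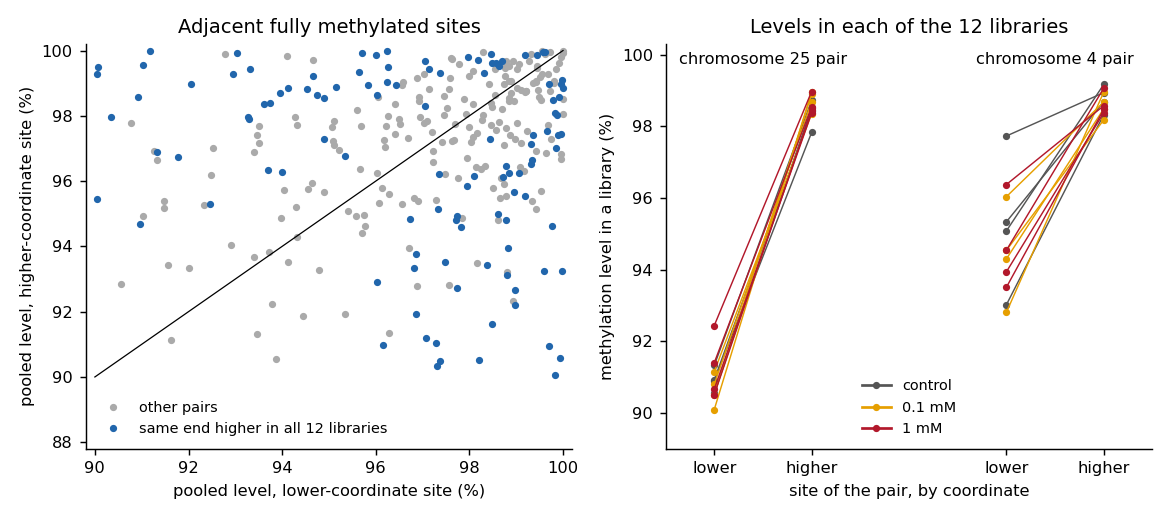
Left, pooled levels in percent of the lower-coordinate (x axis) and higher-coordinate (y axis) site in 312 pairs of adjacent fully methylated sites, with the 112 pairs in which the same site was higher in all 12 libraries in blue; the line marks equal levels. Right, levels of the 2 sites of the chromosome 25 and chromosome 4 pairs in each library, joined by lines coloured by arsenite group; every line rises.

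The distance to the nearest listed site had a median of 225 bp. It was 100 to 600 bp for 85.4% of the fully methylated sites, beside 84.7% of all 2227 sites of that depth and spacing; the rule on spacing limits this distance for both. Fully methylated sites made up 61.4 to 69.9% of the sites of that depth and spacing in each distance class up to 600 bp. At 600 to 1000 bp they made up 43 of 103 (41.7%). Those 43 had a median of 336 summed reads, beside medians of 802 to 6755 in the nearer classes. Of listed sites, 3.52% had that depth and spacing at 600 to 1000 bp, 3.84% up to 100 bp and 14.6 to 18.3% at 100 to 600 bp. The difference between the distance classes was not tested. Along the chromosomes, the outer 10% at each end, measured between the first and last listed site, held 30.8% of the fully methylated sites. It also held 668 of the 2227 sites of that depth and spacing, which is the like set for this share. Of all listed sites, whatever their depth and spacing, it held 24.7%. Fully methylated sites made up 444 of the 668 (66.5%) there and 996 of 1559 (63.9%) in the inner part. The difference between the zones was not tested.

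Chromosomes differed in how many of their sites of that depth and spacing were fully methylated. The share was highest on chromosome 3, at 66 of 87 (75.9%, Wilson interval 65.9 to 83.6%), and chromosome 1, at 56 of 74 (75.7%, 64.8 to 84%). It was lowest on chromosome 8, at 46 of 95 (48.4%, 38.6 to 58.3%), and chromosome 24, at 43 of 82 (52.4%, 41.8 to 62.9%). Chromosome 8 also had the largest share of sites under 10%, at 22.1%, against 4.60% on chromosome 3. The intervals cover counting error only and treat sites as independent, and the order was not tested.

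Exposure to 1 mM arsenite was tested site by site against control with edgeR's quasi-likelihood test on methylated and unmethylated reads, over all 2228 testable sites. P-values were adjusted by Benjamini-Hochberg, and sites under 0.05 counted as called. Of the 1440 fully methylated sites, 215 were not tested for lack of 20 reads in some library and 21 for lack of any unmethylated read, which left 1204. None of the 1204 passed, nor did any of the 2228 (0%), and the count with limma was also 0. Before adjustment, edgeR gave a p under 0.05 at 48 (3.99%), beside 4.67% of all tested sites, and limma at 57 (4.73%), beside 4.62%. The groups did not overlap at 23 of the 1204 (1.91%), beside 1.97% of all tested sites. At 1 mM 15 of the 23 were higher (1.25%, beside 1.21%) and 8 lower (0.664%, beside 0.763%). The median difference was 0.027 points, beside 0.037 over all tested sites, and 53.2% of the sites were higher at 1 mM, beside 53.9%.

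The limma intervals bear only roughly on how large a change could have gone unseen. Between 1 mM and control the 95% limma interval lay within 2 points of 0 at 714 of the 1204 sites (59.3%, beside 47.3% of all tested sites) and within 5 points at 1096 (91.0%, beside 74.4%). Means differed by 2 points or more at 103 sites (8.55%, beside 15.5%) and by 5 points or more at 11 (0.914%, beside 3.23%). Levels this close to 100% leave little room for a rise, so these shares are partly fixed by the choice of sites. The intervals also rest on a pseudocount of 1, which draws changes in log2 odds toward 0 where unmethylated reads are few. At chromosome 20 position 30718585 the edgeR change of -4.21 lay outside the limma interval of -2.25 to -0.551. Where unmethylated reads are few, an interval near 0 therefore does not exclude a larger change.

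The 6 fully methylated sites with the smallest p between 1 mM and control did not pass. Chromosome 19 position 16937836 had 4, 5, 6 and 5 unmethylated reads in the 4 controls, 10, 9, 10 and 10 at 0.1 mM, and 14, 12, 11 and 20 at 1 mM, on 2098, 2127 and 2053 reads per group. Levels were 98.9 to 99.2% in controls, 97.9 to 98.3% at 0.1 mM and 96.3 to 98% at 1 mM, and neither exposed group overlapped the controls. The log2 odds of methylation differed by -1.55 between 1 mM and control (edgeR adjusted p = 0.181; 95% limma interval -1.84 to -0.917). This was the only one of the 6 at which all 4 pools at 1 mM lay below all controls.

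At 4 of the other 5, levels were higher at 1 mM. Chromosome 16 position 26174631, read at 1327 or more reads per library, was at 93.8%, 95.1%, 95.2% and 94.6% in controls and at 95.7%, 97%, 95.3% and 97.1% at 1 mM, with 94.1 to 95.3% at 0.1 mM. The 1 mM pools were all above the controls, by 1.58 points on average, and the 0.1 mM pools overlapped the controls. Chromosome 10 position 5760968 was at 98.4 to 99% in controls, 99.1 to 99.9% at 0.1 mM and 99.2 to 100% at 1 mM, a difference of 0.783 points. Chromosome 19 position 38201828 was at 97.7 to 98.7% in controls and 98.8 to 99.4% at 1 mM. Chromosome 21 position 31456878 had the largest difference of these, 6.25 points, from 88.1% ± 3.22 to 94.4% ± 2.54 (SD, n = 4), with 92.1% in control 3 above the 91.7% of 1 mM library 2. The remaining site, chromosome 20 position 30718585, had 0 unmethylated of 370 control reads, which allows up to 0.811%, and 5, 1, 2 and 0 unmethylated reads of 352 at 1 mM. Across these 5 sites, edgeR gave adjusted p from 0.648 to 0.780.

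**Figure D5:**
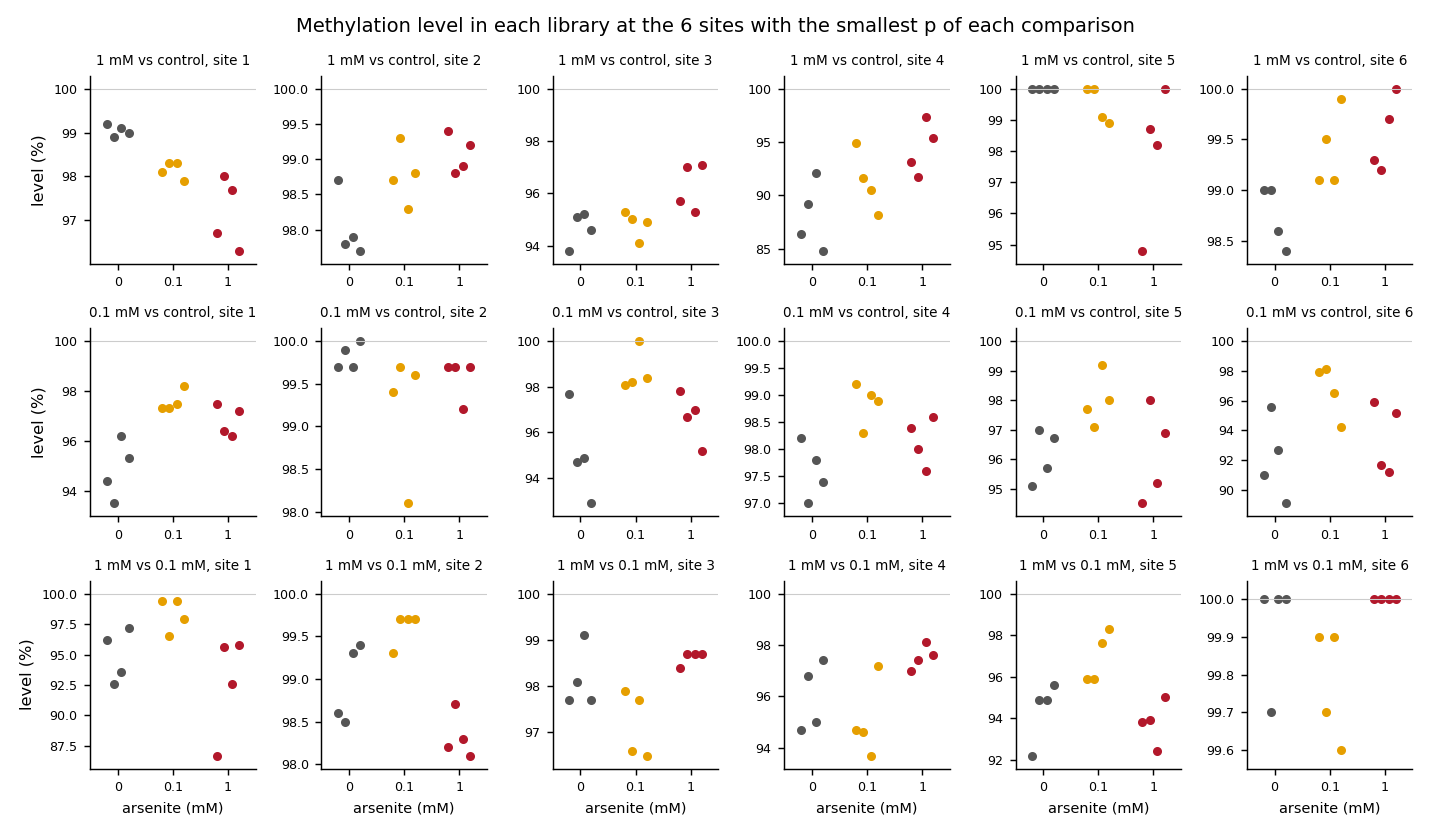
Methylation level in percent (y axis, scaled to each panel) in each library at the 6 fully methylated sites with the smallest p in each comparison (rows), by arsenite concentration in mM (x axis); grey, orange and red points are control, 0.1 mM and 1 mM pools. In the first row the panels are chromosome 19 position 16937836, chromosome 19 position 38201828, chromosome 16 position 26174631, chromosome 21 position 31456878, chromosome 20 position 30718585 and chromosome 10 position 5760968; most panels span only a few points and none of the 18 differences passed adjustment.

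The largest differences in points between 1 mM and control were at thinly read sites. Chromosome 21 position 25325465, with 656 reads in all, was at 95.5%, 87.5%, 90.3% and 78.0% in controls and 97.8%, 96.6%, 91.8% and 94.0% at 1 mM, a difference of 7.22 points with overlapping groups. Chromosome 24 position 21736499 (392 reads) was higher by 6.71 points and chromosome 14 position 52647726 (906 reads) by 6.59. Chromosome 3 position 58028802 (589 reads) was lower by 6.34 points, from 98% ± 2.55 to 91.7% ± 8.07 (SD, n = 4), through 1 mM libraries 3 and 4 at 86.4% and 83.3%. All 4 had an edgeR adjusted p of 0.942.

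At 0.1 mM, the result was the same in count. None of the 1204 fully methylated sites passed against control, as among all tested sites (0%), and limma called 0. Unadjusted p was under 0.05 at 59 (4.90%) with edgeR, beside 5.16% of all tested sites, and at 67 (5.56%) with limma, beside 5.07%. The groups did not overlap at 24 (1.99%, beside 2.24%), with 17 higher at 0.1 mM (1.41%, beside 1.35%) and 7 lower (0.581%, beside 0.898%). The median difference was 0.00959 points, beside -0.000175 over all tested sites, and 51.2% of sites were higher, beside 49.1%. Means 2 points or more apart were found at 99 sites (8.22%, beside 14.8%), and 60.1% had a 95% interval inside 2 points of 0, beside 47.6%. The 4 control libraries are the same as in the comparison with 1 mM.

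The smallest p at 0.1 mM belonged to chromosome 10 position 3853487. It was at 94.4%, 93.5%, 96.2% and 95.3% in controls, 97.3%, 97.3%, 97.5% and 98.2% at 0.1 mM, and 97.5%, 96.4%, 96.2% and 97.2% at 1 mM. The 0.1 mM pools all lay above the controls, by 2.74 points (edgeR adjusted p = 0.465), and the 1 mM pools reached down to the highest control. At chromosome 7 position 72901810 the 0.1 mM pools, at 98.1 to 100%, were above the controls, at 92.9 to 97.7%, by 3.63 points. At chromosome 18 position 40110239 they were at 98.3 to 99.2% with controls at 97 to 98.2%. Chromosome 17 position 48523669 was higher by 1.88 points, with 97.1 to 99.2% at 0.1 mM and 95.1 to 97% in controls, while 1 mM pools spread from 94.5 to 98%. Chromosome 2 position 16625773 was higher by 4.56 points with overlapping groups.

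Of these 6 sites, chromosome 6 position 110288 alone was lower at 0.1 mM. It had 2, 1, 2 and 0 unmethylated reads of 2961 in controls, and 5, 2, 16 and 3 of 3125 at 0.1 mM, so that library 3 held most of them. For all but chromosome 10 position 3853487, edgeR gave an adjusted p of 0.864. The largest differences in points were again at thinly read sites. Chromosome 15 position 940081 (447 reads) had a mean difference of -9.23 points, with 75.6% in 0.1 mM library 2, chromosome 18 position 19009528 (603 reads) had -8.05 points and chromosome 8 position 45230173 (418 reads) -6.62, while chromosome 9 position 9116378 (501 reads) had 8.06 points. None of these passed (edgeR adjusted p of 0.939 to 0.961).

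Between the doses, none of the 1204 sites passed either, as among all tested sites (0%), and limma called 0. Unadjusted p was under 0.05 at 55 (4.57%) with edgeR, beside 4.71%, and at 67 (5.56%) with limma, beside 5.12%. The groups did not overlap at 27 (2.24%, beside 2.47%), with 14 higher at 1 mM (1.16%, beside 1.71%) and 13 lower (1.08%, beside 0.763%). Means were 2 points or more apart at 112 (9.30%, beside 16.8%), and the 95% interval was inside 2 points of 0 at 58.7%, beside 46.9%. At chromosome 18 position 44776729, levels were 99.3%, 99.7%, 99.7% and 99.7% at 0.1 mM, 98.2%, 98.7%, 98.3% and 98.1% at 1 mM, and 98.5 to 99.4% in controls, so the doses did not overlap and the controls overlapped only the 1 mM pools and the lowest 0.1 mM pool. Chromosome 10 position 137479 was at 96.5 to 97.9% at 0.1 mM and 98.4 to 98.7% at 1 mM, with controls at 97.7 to 99.1%. At chromosome 6 position 25987639 the 1 mM pools, at 92.4 to 95%, lay below the 0.1 mM pools, at 95.9 to 98.3%.

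The smallest p between doses belonged to chromosome 19 position 30343379, at 99.4%, 96.5%, 99.4% and 97.9% at 0.1 mM and 86.7%, 95.6%, 92.6% and 95.8% at 1 mM. The doses did not overlap there, the difference was -5.64 points, and the controls, at 92.6 to 97.2%, overlapped both. Of the 6 sites with the smallest p, only chromosome 7 position 73167573 had overlapping doses, at 93.7 to 97.2% at 0.1 mM and 97 to 98.1% at 1 mM. Chromosome 22 position 6491341 had 1, 2, 1 and 3 unmethylated reads of 3179 at 0.1 mM and 0 of 2918 at 1 mM, which allows up to 0.103%, with 2 of 2950 in controls, both in library 2. For the 6 sites edgeR gave adjusted p from 0.643 to 0.786.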

How the data were processed

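Per the labels' protocols, DNA of embryo pools was cut with SmaI and then XmaI, with spiked standards, and sequenced. The submitters' processing notes name danRer7 as the build, and no aligner is given in the sources used here. The deposited files give methylated and unmethylated reads per site, handled as estimated counts because the authors' correction factor (1.198 to 1.324) stands in the same column; all site values were whole. The deposited levels are in percent; the authors' adjusted level multiplies methylated reads by that factor. Levels here are unadjusted shares of reads. Adjustment raised the median pooled level of the fully methylated sites from 97.7% to 98.1%. A table of the whole series held 836 of them, with adjusted levels equal to those in the library files.

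All sites that reached 20 reads per library and had reads of both kinds were fitted together with edgeR 4.0.16 in R 4.3.3 (a coverage term per library, a group term on methylated reads; all 12 libraries). Intervals were taken from limma 3.58.1, run on log2 odds (pseudocount 1) and converted to points at the reference group's mean. The fit was tested on simulated data. Other steps used Python 3.11.15 with pandas 2.3.3, numpy 2.4.6 and scipy 1.17.1. The protocol names no molecular identifiers. Binomial intervals, and the upper limit of 3 counts where none was seen, therefore hold for counting error alone. The chi-square of site depths between replicates was never under 7.42 per degree of freedom, so no library was taken as a duplicate.

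The members and the rules for naming sites were chosen with earlier results of these data known. Named are, by rule, the 6 fully methylated sites with the smallest p per comparison, the 5 deepest, the 5 deepest without unmethylated reads, 4 on each side of 90%, the 6 that varied most, all with a neighbour under 10%, the 4 with the largest mean difference from control per dose, the 3 nearest and 3 deepest adjacent pairs, and the chromosomes with the 2 highest and 2 lowest shares. Gene annotation and sequence of this build were not used here.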

Additional observations from a re-analysis of the deposited data

Results flagged for a closer look

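In 9 of 99 groups of 4 libraries, covering the mean level and 32 named sites, the highest or lowest library had a wide gap to its group (Dixon's test); all 9 were at named sites. Chance alone marks some 1 in 20 unselected groups, here 4.95. These sites were selected for small p, large differences or large variation, so that rate need not hold. Where all other libraries of a group were at 100%, any lower value was marked, so the rate does not apply to those groups. Chromosome 9 position 1501041 was at 96.4% in control library 1, with the other controls at 99.7 to 99.9%. Control library 1 also stood apart at chromosome 20 position 25591605, at 94.7% with the others at 89.1 to 90%. At chromosome 6 position 29357472, 1 mM library 4 was at 97.2% with the others at 99.2 to 99.4%. At chromosome 6 position 110288, 1 mM library 3 was at 99.2% with the others at 99.7%. At chromosome 18 position 44776729 the first 0.1 mM library had 99.3% and the other 0.1 mM libraries 99.7%. Control library 2 was at 99.7% at chromosome 22 position 6491341, where the other controls had no unmethylated read.

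The thinly read chromosome 24 position 21736499 was at 87.2% in 0.1 mM library 3 and at 92.3% in 1 mM library 3, with the other libraries of both groups at 100%. Chromosome 15 position 940081 was at 93.3% in control library 3 with the other controls at 100%.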

How the results depend on the processing

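No fully methylated site was called in any comparison under any alternative: 0 of the sites tested with a minimum of 10 or 50 reads, with no minimum per library, with limma at a pseudocount of 1 or 0.5, with only the groups compared, at a pooled level of 95% or more, and without each single library (0 to 0). With the replicate number as a block the counts were 0, 0 and 0 as well. The labels do not say that a number marks a shared spawn, so the numbers were not taken to pair the samples. Deviations of same-numbered libraries had correlations of -0.0624 to 0.0412 over 12 pairs, beside -0.0993 to 0.0692 for different numbers. The median SD between pools at single sites was 0.892 points, beside a median of 0.772 for counting error alone, so counting error made up much of these deviations. These correlations therefore cannot tell whether a number marks a shared spawn. Alternative values were taken at the 26 sites named for a small p or a large mean difference, not at the other named sites. All 383 kept the direction of the log2 odds and none passed. These sites were picked for their differences in the same libraries, so a kept direction was largely fixed by that choice. The lowest adjusted p was 0.0542, for chromosome 19 position 16937836 between 1 mM and control with limma at a pseudocount of 0.5. The mean level differed between 1 mM and control by -0.0258 to 0.0911 points when single libraries were left out and by 0.00775 to 0.0916 under other settings. Between 0.1 mM and control these ranges were -0.0554 to 0.0615 and -0.0106 to 0.0408, and between the doses -0.00382 to 0.0864 and -0.03 to 0.0858, so the sign of all 3 depends on single libraries. The number of fully methylated member sites was 1389 to 1411 without single libraries, 1173 at 480 summed reads, 1131 at 95%, 1447 with a window of 600 bp and 1514 with corrected levels. At 54 named sites, 33 of 702 alternative pooled levels lay outside the main Wilson interval, 29 of them with corrected levels. The share of neighbours at 90% or more was 82.2 to 82.7% without single libraries and 81.7 to 83.6% otherwise. Depth limits single sites: 215 of the 1440 had under 20 reads in some library and were not tested.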

Other observations

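Adjacent fully methylated sites were often read to almost the same depth. No such count is given for adjacent sites of other levels, so this is not shown to be particular to fully methylated sites. Of the 373 pairs, 197 had summed reads within 0.2 of each other on the log2 scale, a limit chosen after the depths were seen, and these lay 79 to 616 bp apart with a median of 233 bp. At the other extreme, 83 pairs differed by more than 2 on the log2 scale. Of the pairs at 100 to 600 bp, 183 of 338 were matched in depth, and of those under 100 bp 12 of 29. The 197 pairs differed in level by a median of 1.94 points, beside 1.84 over all 373, and 59 of them differed by more than 3 points. Across the 178 matched pairs with at least 20 reads per library, Pearson's r between the pooled levels of the 2 sites was 0.133, and r between their deviations in single libraries from the site's own mean was 0.0857, as descriptions over pairs that share libraries.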
